A study of Homo sapiens with 4 samples.

Results

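Inhibitor of apoptosis (IAP) genes other than survivin, the genes of their mitochondrial antagonists, and the genes of caspase-9 and its activating scaffold were followed after YM155 in KYSE410, an established line of human esophageal squamous cell carcinoma. The 8 genes sought were XIAP, BIRC2, BIRC3, BIRC6, DIABLO, HTRA2, CASP9 and APAF1, and each probe set whose platform annotation gave exactly 1 of these symbols was taken. This gave 19 probe sets, of 54613 on the array apart from controls, for 7 of the 8 genes sought, out of 19775 genes with a probe set of their own. BIRC3 was not analysed here, since no probe set carried it as its only symbol. Total RNA was hybridised to 4 Affymetrix 3' expression arrays, 2 from cells given 20 nM YM155 for 6 h and 2 from untreated cells, all grown in RPMI medium with 10% serum. YM155 is a small molecule that became known for lowering survivin expression, and treated cells were set against untreated ones to find transcripts that change. The treatment protocol of the same samples names cisplatin at 10 mM for 12 h instead, so agent, dose and time rest on the treatment labels, with YM155 also named in the series title. The YM155 titles also carry the marks B1 and B2, which no label explains. No label states that the arrays of a group came from separate cultures, so p-values cover only the spread of these 4 arrays, and that spread may be technical.

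IAP proteins carry baculovirus IAP repeat (BIR) domains, with which XIAP binds and blocks caspases, and several members are ubiquitin ligases. When mitochondria are permeabilised, cytochrome c joins APAF1 in the apoptosome, which activates caspase-9, and DIABLO (also called SMAC) and HTRA2 (also called Omi) reach the cytosol and displace caspases from IAPs. The balance of these transcripts is of interest for YM155 because survivin, the gene product for which the drug is known, is itself a BIR-domain protein.

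HTRA2 and CASP9 had the members' lowest differences, and earlier work on YM155 concerned the transcription factor SP1, which binds GC boxes, so a promoter window of each is shown with the GC box GGGCGG, read on either strand, in capitals. The windows run from 250 bases before to 50 bases after an annotated start, and the most upstream one in the RefSeq table (GRCh38.p14) was taken for each gene. The HTRA2 window is chr2:74529155-74529454 on the plus strand, and the CASP9 window is chr1:15524741-15525040 on the minus strand.
HTRA2: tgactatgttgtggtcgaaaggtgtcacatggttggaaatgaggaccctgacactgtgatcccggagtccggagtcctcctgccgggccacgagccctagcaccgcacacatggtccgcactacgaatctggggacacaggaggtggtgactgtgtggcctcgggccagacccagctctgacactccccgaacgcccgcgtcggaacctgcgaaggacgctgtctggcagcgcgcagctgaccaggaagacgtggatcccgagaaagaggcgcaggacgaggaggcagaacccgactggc
CASP9: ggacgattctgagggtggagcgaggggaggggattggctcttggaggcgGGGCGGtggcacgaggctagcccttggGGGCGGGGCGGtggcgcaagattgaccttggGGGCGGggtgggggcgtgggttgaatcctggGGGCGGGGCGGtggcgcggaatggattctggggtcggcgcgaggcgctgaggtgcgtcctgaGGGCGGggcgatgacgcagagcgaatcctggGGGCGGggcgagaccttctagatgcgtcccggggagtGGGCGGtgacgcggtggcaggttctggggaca
The CASP9 window held 9 GC boxes, overlapping ones included, a count reached by 0.419% of 35116 promoter windows of the same length. The other CASP9 window held 8. The HTRA2 window above held 0, and its other window held 2. Of the other genes measured, the most upstream window held 1 for XIAP, BIRC2, DIABLO and APAF1 and 2 for BIRC6. Their further windows held from 0 to 3. A link between this motif and the differences was not tested. At least 1 GC box stood in 45.0% of all windows. The windows of these genes thus differed in this motif, and a match is a description of letters, not a binding site.

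A gap of 2-fold or more separated the 2 YM155 arrays at 56 of the 32768 probe sets tested, and the 2 untreated arrays at 1690. Untreated replicate 2 stood apart from the other 3 arrays: it was that far from the YM155 arrays at 1811 and 2140 probe sets, whereas untreated replicate 1 was at 739 and 850. Differences are therefore also given from untreated replicate 1 alone.

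Values are log2 of the deposited intensity, and differences are YM155 minus untreated. Probe sets with a mean log2 value under 3.32, the 40th percentile, were left out of the test, which kept 32768 probe sets and 17 of the 19 of these genes. By limma, 0 of the 17 passed an adjusted p of 0.05, as did 0% of all probe sets tested in either direction. The smallest adjusted p over all probe sets was 0.223. At an unadjusted limma p under 0.05, 0 of the 17 were higher and 2 were lower, the brighter probe sets of HTRA2 and CASP9. Over all probe sets the shares at that threshold were 5.03% higher (1647) and 6.06% lower (1986). On removal of any 1 array, the difference at these probe sets lay between -0.77 and -0.67 for HTRA2 and between -0.59 and -0.46 for CASP9. It lay between -0.50 and -0.21 at the second HTRA2 probe set. At the 2 tested APAF1 probe sets it lay between -0.55 and -0.22 and between -0.56 and -0.15. The count of these genes' lower probe sets rose without an untreated array and fell without a YM155 array. The count over all probe sets moved the same way, so these shifts were not particular to these genes.

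Both YM155 arrays lay below both untreated arrays at 8 of the 17 tested probe sets of these genes, against 23.9% of all probe sets tested. They lay above both at 3 of the 17, against 19.4% of all. At the other 2 of the 19 probe sets, left out of the test, the groups overlapped. The 8 belonged to HTRA2 (2), CASP9 (2), APAF1 (2), BIRC2 (1) and XIAP (1), and the 3 were all of XIAP. Probe sets of 1 gene can read the same transcripts and are not taken as independent. The median difference was -0.11 over the 19 and -0.23 over the 17 tested, and over all probe sets tested it was -0.02.

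**Figure D1:**
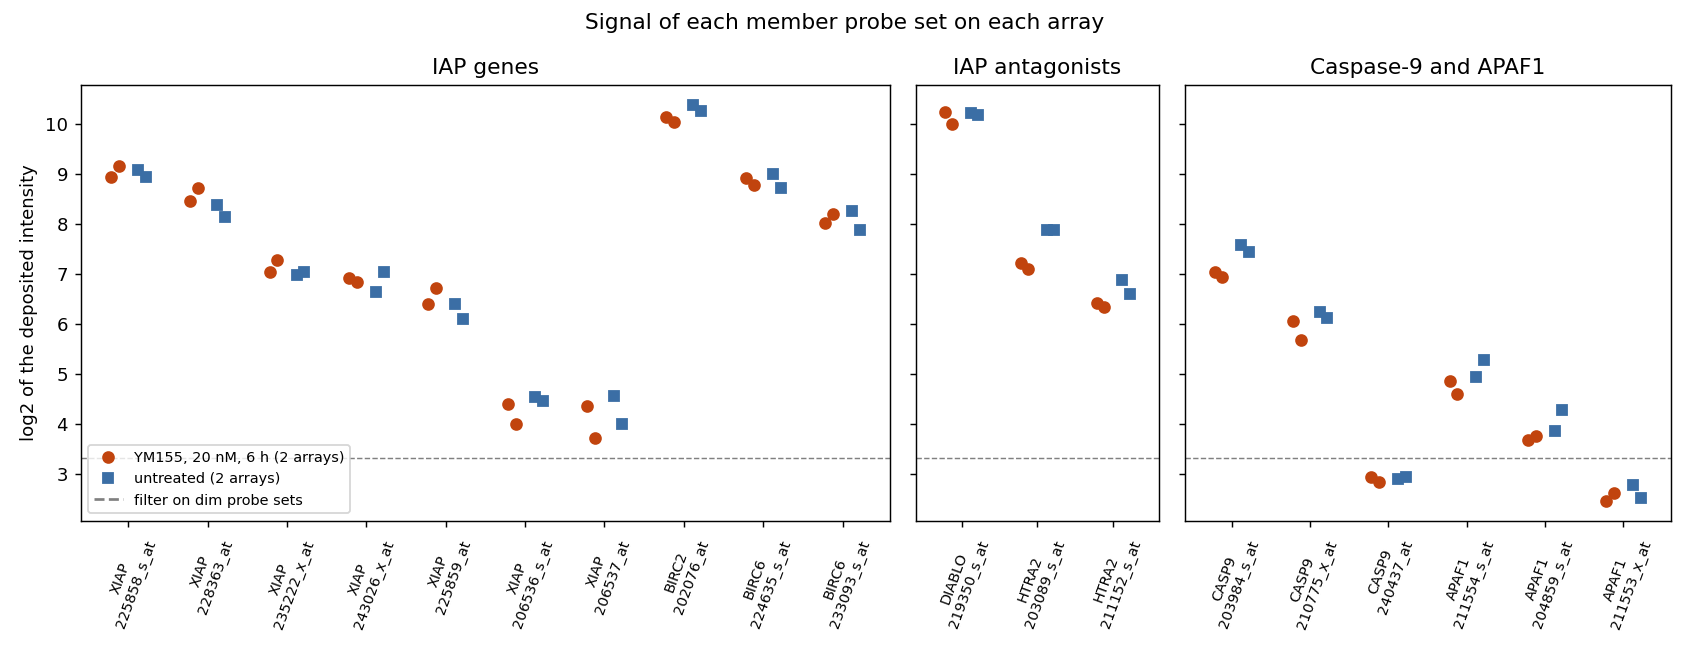
Log2 of the deposited intensity (y axis) for each of the 19 probe sets (x axis), in panels by role, with YM155 arrays as circles and untreated arrays as squares. The dashed line is the filter at 3.32, below which 1 CASP9 and 1 APAF1 probe set lie, and the YM155 circles of HTRA2 203089_s_at (7.22 and 7.11) lie below its untreated squares (7.89 and 7.88).

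Of the antagonists, HTRA2, which encodes a mitochondrial serine protease, had the largest difference of all 7 genes measured. Probe set 203089_s_at read 7.22 and 7.11 in YM155 arrays, against 7.89 and 7.88 in untreated arrays. The groups did not overlap, and the 2 untreated arrays were almost equal at this probe set. The group means were 7.17 ± 0.075 in YM155 and 7.89 ± 0.0025 in untreated arrays (SD, n = 2 each), which put YM155 at 60.7% of the untreated intensity. The difference was -0.72 ± 0.13 (SE; 95% interval -1.07 to -0.37; limma adjusted p = 0.284), and 3.22% of all probe sets tested had a difference as low. The second HTRA2 probe set, 211152_s_at, read 6.43 and 6.34 in YM155 arrays, against 6.88 and 6.60 in untreated arrays. It also showed no overlap, with a smaller difference of -0.35 ± 0.16 (SE; limma adjusted p = 0.511). A lower array value does not tell fewer cells with the transcript from less of it per cell.

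DIABLO, whose product is released from mitochondria and binds the BIR domains of IAPs, was read by 1 probe set, 219350_s_at. It stood at 10.24 and 10.00 in YM155 arrays, against 10.24 and 10.18 in untreated arrays. YM155 replicate 2 was the lowest of the arrays, and the others were close together. Its difference was -0.08 ± 0.15 (SE; limma adjusted p = 0.877), and the 95% interval of -0.49 to 0.32 allows a change of either sign. Both antagonists thus had negative differences, but only HTRA2 without overlap, and the difference between the 2 genes was not tested.

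CASP9, the initiator caspase of the mitochondrial route and a direct target of XIAP, stood lower at both of its probe sets above the filter. Probe set 203984_s_at read 7.04 and 6.94 in YM155 arrays, against 7.58 and 7.45 in untreated arrays. The groups did not overlap, and YM155 stood at 69.6% of the untreated intensity. The difference was -0.52 ± 0.14 (SE; 95% interval -0.89 to -0.16; limma adjusted p = 0.349), with 6.65% of all probe sets tested as low or lower. At 210775_x_at the 2 YM155 arrays read 6.06 and 5.68, against 6.25 and 6.12 untreated, and the difference was -0.32 ± 0.18 (SE; limma adjusted p = 0.588). Here YM155 replicate 1 lay close under untreated replicate 2, and YM155 replicate 2 was well below the others. The third CASP9 probe set, 240437_at, lay below the filter on all 4 arrays at 2.94 and 2.85 in YM155 and 2.90 and 2.94 in untreated arrays, and was not tested.

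APAF1, the scaffold on which caspase-9 is activated, was dim at all of its probe sets. The brightest, 211554_s_at, read 4.85 and 4.61 in YM155 arrays, against 4.95 and 5.28 in untreated arrays. The next, 204859_s_at, read 3.67 and 3.77 in YM155 arrays, against 3.87 and 4.28 in untreated arrays. Neither overlapped, and in both the gap was widest to untreated replicate 2. Their differences were -0.39 ± 0.19 and -0.35 ± 0.19 (SE; limma adjusted p = 0.533 and 0.563). Measured from untreated replicate 1 alone the YM155 mean differed by -0.22 and -0.15, and from untreated replicate 2 alone by -0.55 and -0.56. The third APAF1 probe set, 211553_x_at, lay between 2.47 and 2.79 on all arrays, below the filter, and its groups overlapped.

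**Figure D2:**
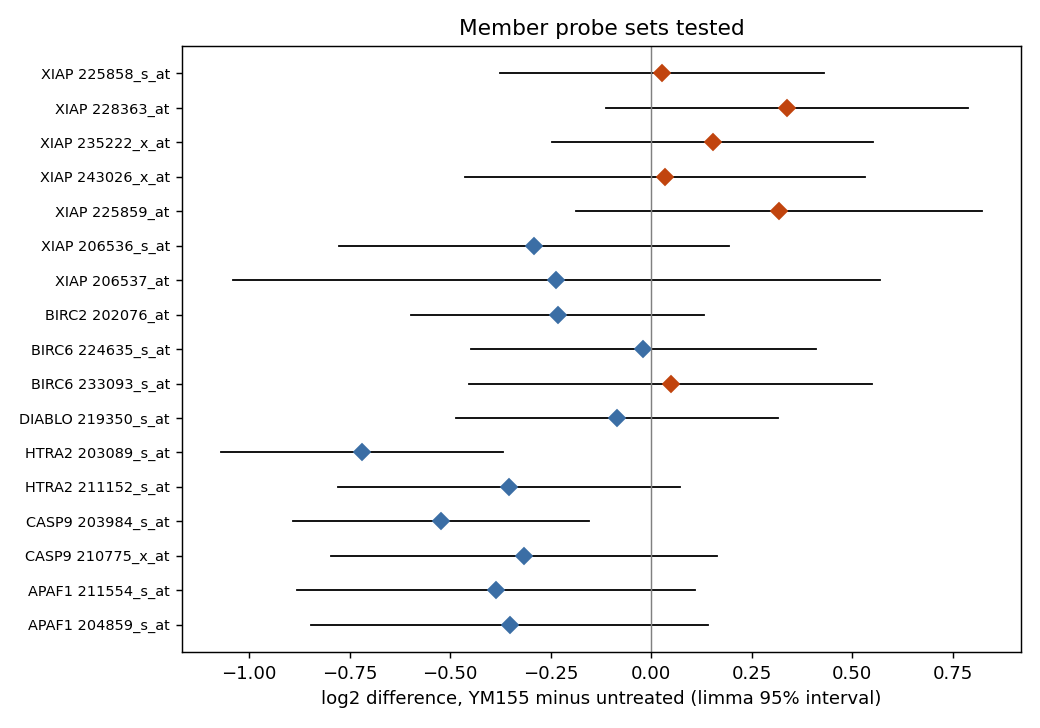
Log2 difference, YM155 minus untreated, of the 17 tested probe sets (diamonds; red above 0, blue below) with limma's 95% interval (lines). Only the intervals of HTRA2 203089_s_at (-1.07 to -0.37) and CASP9 203984_s_at (-0.89 to -0.16) leave out 0, before adjustment over all probe sets.

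XIAP, the IAP that binds and inhibits caspases directly, was read by 7 probe sets, which did not share a direction. Its brightest, 225858_s_at, read 8.95 and 9.16 in YM155 arrays, against 9.09 and 8.96 in untreated arrays. The YM155 arrays enclosed both untreated arrays, and the difference was 0.03 ± 0.15 (SE; 95% interval -0.38 to 0.43; limma adjusted p = 0.969). At 228363_at the YM155 arrays read 8.48 and 8.72, against 8.38 and 8.14 untreated. YM155 stood at 126% of the untreated intensity there, without overlap, a difference of 0.34 ± 0.17 (SE; limma adjusted p = 0.545). Probe set 225859_at gave 6.41 and 6.73 with YM155, against 6.40 and 6.10 untreated, and differed by 0.32 ± 0.19 (SE; limma adjusted p = 0.601). In both of these probe sets YM155 replicate 1 lay just above untreated replicate 1, so that the separation of the groups was narrow.

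The other 4 XIAP probe sets were spread on both sides of 0. Probe set 235222_x_at read 7.04 and 7.28 in YM155 arrays, against 6.98 and 7.04 in untreated arrays, and its groups almost touched. At 243026_x_at the values were 6.92 and 6.84 with YM155 and 6.63 and 7.05 untreated, so that the untreated arrays enclosed the treated ones. The pair of dimmest probe sets went the other way, with 4.402 and 4.006 in YM155 arrays against 4.54 and 4.45 in untreated arrays at 206536_s_at, and 4.37 and 3.73 in YM155 arrays against 4.56 and 4.01 in untreated arrays at 206537_at. Only the first of these was without overlap. Their differences were -0.29 ± 0.19 and -0.24 ± 0.31 (SE; limma adjusted p = 0.617 and 0.818). Over the 7 probe sets, 5 differences were positive and 2 negative, with a median of 0.03.

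BIRC2, which encodes the ubiquitin ligase cIAP1 of tumour necrosis factor receptor signalling, had 1 probe set, 202076_at. It read 10.14 and 10.05 in YM155 arrays, against 10.39 and 10.27 in untreated arrays. The groups did not overlap, with YM155 at 85.1% of the untreated intensity and a difference of -0.23 ± 0.14 (SE; 95% interval -0.60 to 0.13; limma adjusted p = 0.596). A difference as low was found in 21.3% of all probe sets tested.

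BIRC6, a very large IAP that joins ubiquitin to its targets, overlapped between the groups at both of its probe sets. At 224635_s_at the arrays read 8.92 and 8.79 with YM155, against 9.01 and 8.74 untreated. At 233093_s_at they read 8.02 and 8.21 with YM155, against 8.26 and 7.88 untreated. In each, the untreated arrays enclosed both YM155 arrays. The differences were -0.02 ± 0.16 and 0.05 ± 0.19 (SE; limma adjusted p = 0.981 and 0.954), with intervals of -0.45 to 0.41 and -0.45 to 0.55.

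By role, the 10 IAP probe sets had a median difference of 0.03, with 6 positive and 4 negative. The 3 antagonist probe sets were all negative with a median of -0.35, and the 4 tested probe sets of caspase-9 and APAF1 were all negative with a median of -0.37. Of all probe sets tested, 47.1% had a positive and 52.8% a negative difference. Of the 10 IAP probe sets 7 were of XIAP, and of the 3 antagonist ones 2 were of HTRA2. By the brightest probe set of each gene, 6 of the 7 genes had a negative difference. Among the IAP genes these were -0.23 for BIRC2 and -0.02 for BIRC6, against 0.03 for XIAP. The medians by role describe the probe sets named and were not tested against each other.

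**Figure D3:**
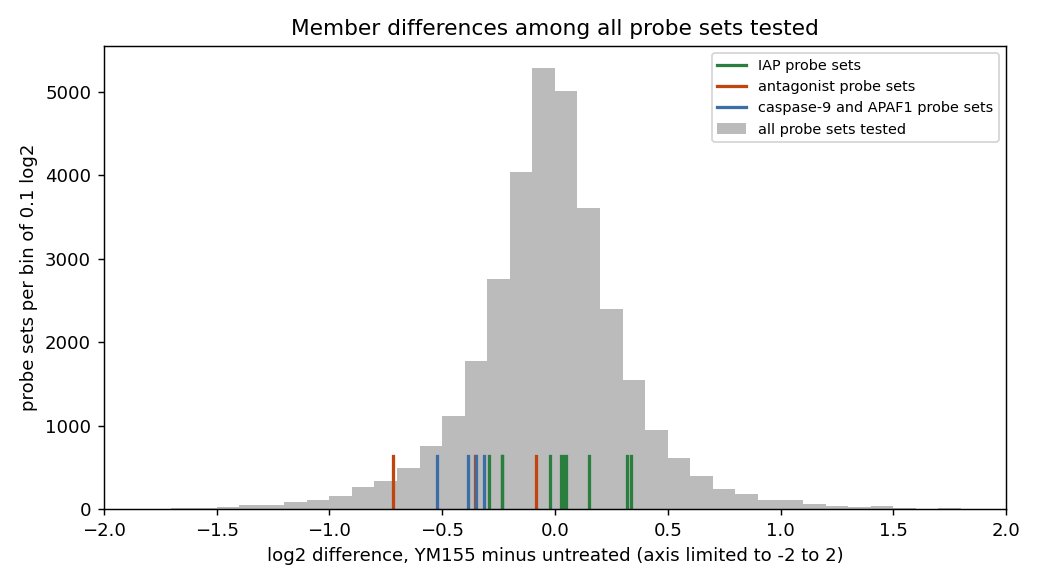
Histogram of the log2 difference, YM155 minus untreated, of all 32768 probe sets tested (grey, bins of 0.1), with the 17 probe sets of these genes as coloured ticks by role. The ticks lie between -0.72 and 0.34, and the HTRA2 tick at -0.72 is the only one below the 5th percentile of all probe sets (-0.60).

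Among the 17 tested probe sets of these genes the median gap was 0.21 between the YM155 arrays and 0.24 between the untreated arrays. Over all probe sets tested these medians were 0.14 and 0.24, so at these genes the YM155 arrays were less close than is typical. Measured from untreated replicate 1, the YM155 mean differed by -0.72 at HTRA2 203089_s_at and by -0.59 at CASP9 203984_s_at. From untreated replicate 2 the same differences were -0.72 and -0.46. In the brightest probe sets of the other genes, the difference from untreated replicate 1 was -0.30 for BIRC2, -0.16 for BIRC6, -0.11 for DIABLO and -0.04 for XIAP, and from untreated replicate 2 it was -0.17, 0.12, -0.06 and 0.10 in the same order. The difference thus had 1 sign against both untreated arrays for all tested probe sets of HTRA2, CASP9, APAF1, BIRC2 and DIABLO. It changed sign between them for both BIRC6 probe sets and for 3 of the 7 XIAP probe sets. The ratio of 3' to 5' signal of control probe sets is a measure of RNA quality. For ACTB it was 4.28 and 7.74 in YM155 arrays and 6.61 and 4.54 in untreated arrays. For GAPDH it was 1.02 and 1.16 in YM155 arrays and 1.03 and 1.03 in untreated arrays. The groups overlapped in both, and the part of RNA quality in the results was not tested.

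**Figure D4:**
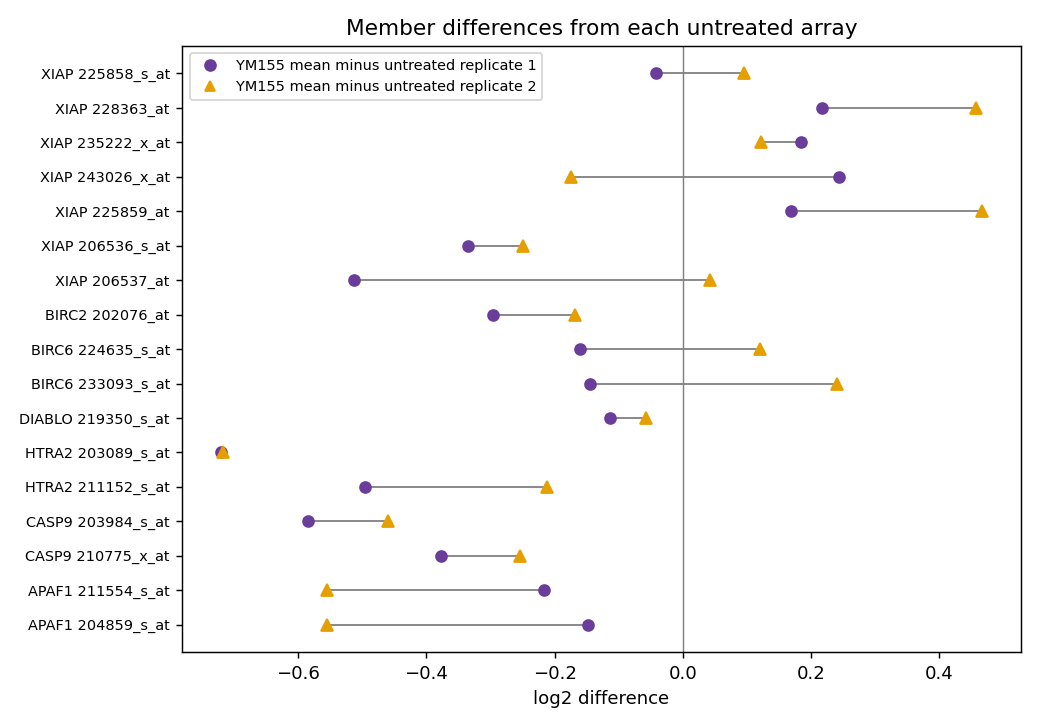
Log2 difference of the YM155 mean from untreated replicate 1 (circles) and from untreated replicate 2 (triangles) for the 17 tested probe sets. The 2 symbols coincide for HTRA2 203089_s_at at -0.72 and lie on opposite sides of 0 for both BIRC6 probe sets.

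Squamous markers were bright, with SFN between 12.2 and 13.2 and KRT5 between 10.7 and 11.2 over the 4 arrays. The intensities of the 4 squamous markers with a probe set of their own, SFN being the brightest, were summed on each array. The log2 of that sum was 13.58 to 13.62 in YM155 arrays and 12.83 to 13.17 in untreated arrays, and its part in the results was not tested. Of the leukocyte list, LCP1 read 9.41 to 10.0, followed by CD3E at 3.39 to 4.06, while the defining marker PTPRC lay at 2.05 to 2.18, below the filter. COL1A1 (6.08 to 6.24) and PDGFRB (4.33 to 4.55) were the brightest fibroblast markers and PECAM1 (4.12 to 4.45) and VWF (3.78 to 4.01) the brightest endothelial ones. CDX2 (3.99 to 4.06) and TFF3 (3.42 to 3.76) led the glandular list.

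Other genes of the pathway were read from 4 lists of 27 genes, of which 22 had a probe set of their own and 20 passed the filter in their brightest one. In limma's test of these brightest probe sets, an adjusted p of 0.05 was passed by 0 of the 20 in either direction, and an unadjusted p of 0.05 likewise by 0. Dimmer probe sets did pass an unadjusted limma p of 0.05, higher for CYCS, CASP2, CASP10 and GSPT1 and lower for DFFA and USP9X. Over all probe sets tested, the shares at that threshold were 5.03% higher and 6.06% lower. The dimmer probe sets of these lists were not tested as a set. The 20 had a median difference of -0.07, with 8 positive and 12 negative. The other 5, among them BIRC8, TRAF2 and RIPK1, were not analysed here. The brightest probe sets of NAIP, a BIR-domain protein of the inflammasome, and XAF1, a binding partner of XIAP, lay below the filter and overlapped between the groups.

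Survivin itself, BIRC5, read 9.24 and 9.30 in YM155 arrays, against 9.33 and 9.73 in untreated arrays, at its brightest probe set. The groups did not overlap, but untreated replicate 1 lay close to both YM155 arrays, and the difference was -0.26 ± 0.18 (SE; limma adjusted p = 0.653). From untreated replicate 1 alone it was -0.06, and from untreated replicate 2 alone -0.46. Its other probe sets gave -0.54 without overlap (202094_at), and -0.43 and -0.10 with overlap (210334_x_at and 1555826_at). BIRC7, another BIR-domain gene, stood at -0.04 ± 0.13.

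Among other caspases, the brightest probe set of CASP2 stood at 0.27 ± 0.18 (SE) and that of the executioner caspase gene CASP6 at -0.24 ± 0.21. CASP8, the initiator caspase of death receptors, gave 5.95 and 6.71 in YM155 arrays, against 7.52 and 6.14 in untreated arrays. The groups overlapped, with YM155 replicate 1 the lowest of the arrays and untreated replicate 1 the highest. CASP10, a relative of CASP8, stood at -0.41 ± 0.16 (SE; limma adjusted p = 0.460) in its brightest probe set, but its 2 dimmer probe sets above the filter gave 0.39 and 0.38. All 7 probe sets of CASP2 had positive differences, from 0.04 to 0.54.

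CYCS, which encodes cytochrome c, the activator of APAF1, had the furthest differences in these lists, though not in its brightest probe set. That one, 208905_at, read 12.64 and 12.68 in YM155 arrays, against 12.46 and 12.43 in untreated arrays, and differed by 0.22 ± 0.13 (SE; limma adjusted p = 0.598). The dimmer 229415_at read 6.69 and 6.63 in YM155 arrays, against 5.74 and 5.58 in untreated arrays. The dimmest, 244546_at, read 4.94 and 4.92 in YM155 arrays, against 3.71 and 3.46 in untreated arrays. All 3 lacked overlap, and the last 2 had differences of 1.001 ± 0.140 and 1.35 ± 0.15 (SE; limma adjusted p = 0.235 and 0.228), values that were singled out after they were seen.

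In its brightest probe set DFFA, the inhibitor of the caspase-activated nuclease DFFB, stood at -0.19 ± 0.13 (SE), and DFFB at -0.07 ± 0.14. The caspase substrates PARP1, a DNA repair enzyme, and LMNA, a nuclear lamin, gave -0.15 ± 0.15 and 0.08 ± 0.17. Of the IAP partners and regulators, MAP3K14, the kinase that cIAP1 holds low, gave 0.37 ± 0.40, and TAB2, an adaptor of the TAK1 kinase, -0.32 ± 0.19. GSPT1 (0.18), SEPTIN4 (0.10), AREL1 (0.07), TAB1 (0.01), TRAF1 (-0.07), PARL (-0.14) and USP9X (-0.17) lay between -0.17 and 0.18 in their brightest probe sets. Dimmer probe sets were further from 0 for some of these genes, at -0.73 for USP9X (230543_at), -0.63 for DFFA (203277_at) and 0.41 for GSPT1 (240452_at), each without overlap and with limma adjusted p of 0.348, 0.401 and 0.447.

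**Figure D5:**
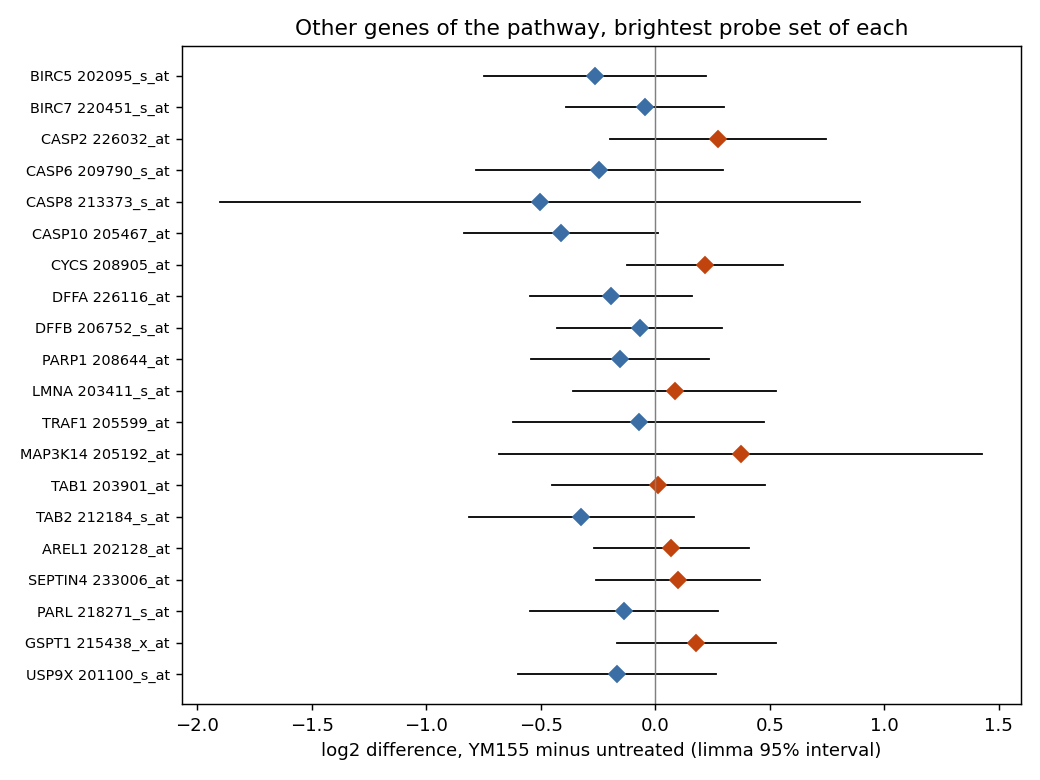
Log2 difference, YM155 minus untreated, of the brightest probe set of each of the 20 other pathway genes above the filter (diamonds; red above 0, blue below) with limma's 95% interval (lines). Each interval includes 0, and that of CASP8 is the widest, from -1.90 to 0.89.

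The genes most like HTRA2 over the 4 arrays were sought among 14043 genes by the Euclidean distance of log2 values centred on their mean, each gene by its brightest probe set. The 3 nearest were CEP76, a centrosomal protein gene, at a distance of 0.017 and a difference of -0.71, the deubiquitinase gene OTUB2 at 0.033 and -0.74, and PRUNE1 at 0.038 and -0.71. With 4 arrays such likeness describes these values only.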

How the data were processed

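Each probe set has 1 intensity on each array, which the authors made with RMA (robust multi-array averaging), per the submitters' processing notes, with version and settings not given in the sources used here. The deposited values lay between 2.42 and 15214, a linear scale, so log2 was taken. RMA sets the arrays to a common distribution (medians 16.0 to 16.2), so a shift shared by all genes is not measured. Control probe sets (62 of 54675) were left out. The platform annotation gave 1 symbol for 41091 probe sets, several for 1801 and none for 11721. Detection calls were not used here, and the number of arrays limits the precision.

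Groups followed the sample titles and treatment labels. YM155 was compared with untreated by limma 3.58.1, run in R 4.3.3 with lmFit and eBayes and no term but group, two-sided, over the 32768 probe sets at or above the 40th percentile of mean log2 value, with Benjamini-Hochberg adjustment over all of them. Residual degrees of freedom were 2 and the prior added 2.69. The test was checked on simulated data. Named were all probe sets of the 8 genes, all genes of 4 pathway lists, the 3 genes nearest to the gene of largest difference, and the 2 brightest markers of each cell type. The genes and lists were chosen with earlier results of these data known. Promoter windows are RefSeq's (GRCh38.p14). Alternatives were other filters, normalizations, variance models and feature levels, a replicate block, and each array left out. They were extended to the pathway lists after the data were seen.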

Additional observations from a re-analysis of the deposited data

How the results depend on the processing

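No probe set, of these genes or of all, passed an adjusted p of 0.05 in limma under any of the 12 alternatives for the whole table, and neither did any other pathway gene. HTRA2, CASP9, APAF1 and BIRC2 kept a negative difference in the brightest probe set under all alternatives that gave a value. For HTRA2 it ran from -0.77 to -0.54, with limma adjusted p from 0.0828 to 1. For CASP9 it ran from -0.59 to -0.42 (limma adjusted p from 0.141 to 1). The lowest adjusted p of each came without untreated replicate 1. The near-zero values of 3 genes changed sign. BIRC6 gave 0.014 as the mean of its probe sets and ran from -0.16 to 0.12 with each array left out in turn, DIABLO from -0.21 to 0.037 and XIAP from -0.079 to 0.13. The cause was not tested. Across these fits without 1 array, probe sets at an unadjusted p under 0.05 ran from 422 to 4437 higher and 448 to 4447 lower, and those of these genes that were lower from 1 to 4. With 1 row per gene, which tests 14043 genes, the counts were 734 higher and 1051 lower by the brightest probe set, and 726 and 1067 by the mean. Setting aside _s_at and _x_at probe sets removed all tested ones of HTRA2 and CASP9, the genes of the 2 lower probe sets. The count of 0 lower at that threshold among these genes' remaining probe sets was therefore fixed by that removal. The replicate block gave 1229 higher and 1538 lower, and 2 lower among these genes, with limma adjusted p of 0.568 for HTRA2. The replicate numbers were not shown to pair the arrays (correlation of deviations -0.03 over 32768 probe sets). When 1 array is left out, the lone array is assumed to vary like the other group.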
